A study of Drosophila melanogaster with 24 samples.

Results

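The endoplasmic reticulum (ER) stress response was followed here through 9 genes in the heads of AD and WT flies. They are the sensors *Ire1*, *PEK* and *Atf6*, the transcription factors *Xbp1* and *crc*, and the ER chaperones and folding enzymes *Hsc70-3*, *Gp93*, *Pdi* and *ERp60*. The genes were taken by their symbols from the 13700 annotated genes that were listed in at least 1 library, and all 9 passed the filter on low counts that left 10479 genes for testing. RNA of male heads was sequenced 3, 10, 20 and 30 days after eclosion, and each of the 8 combinations of genotype and day had 3 replicates. AD flies carried a UAS-Aβ42 transgene in the w1118 background, driven by elav-GAL4 c155, while WT flies were w1118 outcrossed to the same driver line, so both genotypes held the driver and the white mutation. The elav driver acts in neurons, whereas each library was made from pooled whole heads, which also hold glia, fat body and muscle. The sample labels describe the transgene as human APP, and the Aβ42 description of the methods was used. Nothing in the labels states that replicates came from separate cultures, so p-values measure the spread between these samples only.

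The ER folds secreted and membrane proteins with the help of chaperones. When unfolded proteins accumulate there, the chaperone BiP, encoded in the fly by *Hsc70-3*, is drawn away from sensor proteins in the ER membrane, and the sensors become active. Ire1 splices the mRNA of *Xbp1*, whose protein switches on chaperone and degradation genes, PEK phosphorylates the initiation factor eIF2alpha and thereby favours translation of *crc* (the fly ATF4), and Atf6 is cleaved to release a transcription factor. Splicing of *Xbp1*, phosphorylation by PEK and cleavage of Atf6 happen after transcription. The values here are 1 per gene and do not separate spliced from unspliced *Xbp1* mRNA.

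The libraries fell into 2 processing runs, recognised by the lengths of the genes that the authors had added to the annotation. The first run held replicate 1 of days 3, 10 and 20 in both genotypes (6 libraries, 21168175 to 26731357 counts), and the second held the other 18 libraries (12884945 to 16237611 counts), including all of day 30. Markers of neurons, photoreceptors, glia, muscle and blood cells were detected in every library, while *Fbp1* of the fat body markers was at 0 in at least 1 AD library, and all 4 markers of the male reproductive tract were at 0 in at least 1 library of each genotype. *Yp1*, a yolk protein gene of females, had 0.521 to 15.8 CPM in AD heads and 1.19 to 38.3 CPM in WT heads. Summed neuronal markers ran from 1461 to 3026 CPM (read counts normalised to library size with the TMM factors of edgeR) in AD heads and from 2129 to 2976 CPM in WT heads. As a check of the labels, *w*, a copy of which commonly marks inserted transgenes, lay between 179.7 and 256 CPM in 11 AD libraries and between 64.1 and 107.4 CPM in WT libraries, but the library labelled AD day 30 replicate 3 had 89.7 CPM. The day 30 comparison of every member is given with and without that library, as are other results of the members where its removal changed a call.

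Levels were compared between genes only as FPKM (fragments scaled to gene length and library size), and over the 18 libraries of the second run. *crc* was the highest, with a median of 597 FPKM (range 424 to 711), and no other member reached its lowest value. *Pdi* (244 FPKM), *Xbp1* (220.1 FPKM), *ERp60* (152 FPKM), *Hsc70-3* (131 FPKM) and *Gp93* (77.0 FPKM) followed in order of their medians, and the range of each overlapped that of the next. The sensors were the lowest, at a median of 29.95 FPKM for *Atf6*, 18.3 FPKM for *Ire1* and 15.1 FPKM for *PEK*. The ranges of *Ire1* and *PEK* overlapped, while every *Atf6* value lay above them and below every *Gp93* value. Over all 24 libraries, the highest CPM was 10.1 times the lowest for *Hsc70-3*, 6.24 times for *Gp93*, and between 1.67 and 2.71 times for the other 7 genes.

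Whether transgenic heads differed from control heads of the same age was asked first. Averaged over the 4 days, *Hsc70-3*, *Gp93* and *Pdi* were higher in AD heads, and these 3 of the 9 members passed the test, none in the other direction. *Hsc70-3* was 2.2-fold higher and *Gp93* 2.05-fold higher, while *Pdi* was 1.26-fold higher. The test was edgeR's quasi-likelihood test with Benjamini-Hochberg adjustment over all tested genes, with a call at an adjusted p (FDR) under 0.05. In this comparison 1.29% of all tested genes were called, and 1.1% were called as higher in AD heads. The median log2 fold change was 0.21 over the members, against -0.01 over all tested genes.

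*Hsc70-3* (FBgn0001218, X:11801696-11807117) encodes BiP, the main Hsp70 chaperone of the ER lumen. At day 3, *Hsc70-3* had 371, 426 and 501.5 CPM in AD heads, against 293, 266 and 262 CPM in WT heads. At day 10, *Hsc70-3* had 1175, 719.7 and 723 CPM in AD heads, against 526, 292 and 233 CPM in WT heads. On both days every AD library lay above every WT library, and at day 10 replicate 1 was the highest of its group in both genotypes. At day 20, *Hsc70-3* had 2338, 958 and 937 CPM in AD heads, against 1477, 237 and 258 CPM in WT heads. At day 30, *Hsc70-3* had 1116, 1046 and 445 CPM in AD heads, against 322, 301 and 317 CPM in WT heads. The groups overlapped at day 20, where WT replicate 1 exceeded AD replicates 2 and 3, and did not overlap at day 30, where the library labelled AD day 30 replicate 3 was the lowest of its group. Averaged over the days, the log2 fold change was 1.14 ± 0.27 (SE), with an FDR of 0.0431. This call was close to its threshold, and it was kept in 4 of the 24 fits that each left out 1 library, with FDR values from 0.000235 to 0.11. The direction was the same in all of those fits, with log2 fold changes from 0.99 without AD day 20 replicate 1 to 1.5 without WT day 20 replicate 1. As in every fit here without 1 library, the filter on low counts was applied anew. It left 11186 genes without WT day 20 replicate 1, against 10479 in the fit of all 24 libraries. A lost call can therefore reflect the changed set of tested genes as well as the library left out.

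*Gp93* (FBgn0039562, 3R:27948711-27952151) encodes the fly GRP94, the Hsp90 chaperone of the ER. At day 3, *Gp93* had 216, 226 and 252 CPM in AD heads, against 171, 141 and 146 CPM in WT heads. At day 10, *Gp93* had 438, 343 and 339.7 CPM in AD heads, against 227, 149 and 123 CPM in WT heads. The groups did not overlap on either day. At day 20, *Gp93* had 767, 444 and 469 CPM in AD heads, against 491, 135 and 147 CPM in WT heads. At day 30, *Gp93* had 541, 501 and 286 CPM in AD heads, against 179, 189 and 189 CPM in WT heads. As for *Hsc70-3*, only WT replicate 1 of day 20 broke the separation of the groups, and the library labelled AD day 30 replicate 3 was low for its group yet above all WT libraries. The log2 fold change averaged over the days was 1.03 ± 0.19, with an FDR of 0.0048, and it stayed past the threshold in all 24 fits without 1 library (FDR from 1.73e-05 to 0.0147).

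*Pdi* (FBgn0014002 in the files, 3L:15137738-15142840) encodes protein disulfide isomerase, which forms and rearranges disulfide bonds in the ER. At day 3, *Pdi* had 399, 393 and 424 CPM in AD heads, against 381, 345 and 404 CPM in WT heads. At day 10, *Pdi* had 542, 499 and 528 CPM in AD heads, against 471, 408 and 439 CPM in WT heads. Its replicates lay close together, the groups overlapped at day 3, and at day 10 every AD library was above every WT library. At day 20, *Pdi* had 589, 639 and 636 CPM in AD heads, against 510.0, 427 and 428 CPM in WT heads. At day 30, *Pdi* had 685, 701 and 756 CPM in AD heads, against 492, 503 and 488 CPM in WT heads. The groups were apart on both of these days, and the library labelled AD day 30 replicate 3, low for *Hsc70-3* and *Gp93*, was the highest of all for *Pdi*. The log2 fold change averaged over the days was 0.33 ± 0.05, with an FDR of 0.000647, and the call was kept in all 24 fits without 1 library. An antisense RNA, asRNA:CR45396, shares 21.5% of the exonic bases of *Pdi* on the opposite strand, and without stated use of strand in the counting its reads and those of *Pdi* cannot be told apart.

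**Figure D1:**
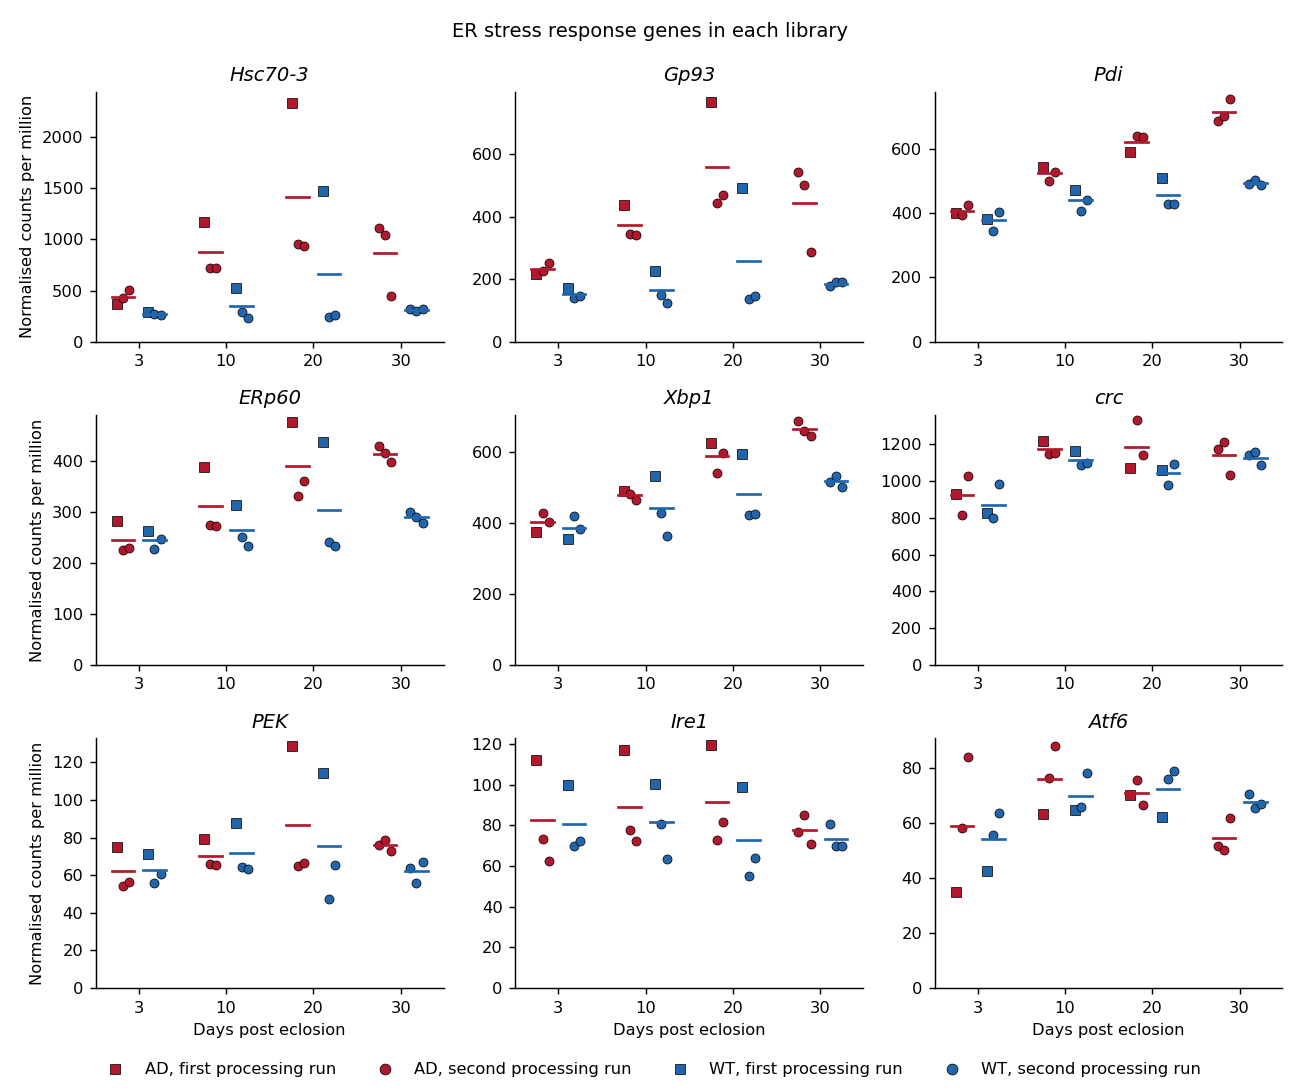
Normalised counts in CPM (vertical axis, from 0) of the 9 ER stress response genes at each day post eclosion (horizontal axis), AD (red) left of WT (blue); squares are libraries of the first processing run, circles those of the second, and short lines are group means. For *Hsc70-3* the AD library of the first run stood at 2338 and the WT library at 1477 on day 20, far above the other libraries of their groups, whereas *Pdi* replicates lay close together with every AD library above every WT library at days 10, 20 and 30.

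*ERp60* and *Xbp1* were not called between genotypes. *ERp60* (FBgn0033663, 2R:11887568-11890979), a disulfide isomerase related to *Pdi*, had 431, 416 and 399.8 CPM in AD heads at day 30, against 301, 291 and 279 CPM in WT heads. At day 20, *ERp60* had 478, 332 and 361 CPM in AD heads, against 438, 241 and 234 CPM in WT heads. The groups were apart at day 30 but overlapped at day 20 through WT replicate 1. At day 10, *ERp60* had 389.6, 275 and 274 CPM in AD heads, against 314, 251 and 233 CPM in WT heads. At day 3, *ERp60* had 284, 225 and 230.05 CPM in AD heads, against 263, 229 and 247 CPM in WT heads. On these earlier days the groups overlapped, and replicate 1 was the highest in both genotypes. Averaged over the days the log2 fold change of *ERp60* was 0.28 ± 0.10 (FDR 0.28), and it was called with replicate number as a block (FDR 0.0307).

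*Xbp1* (FBgn0021872, 2R:21143545-21145750) had 688, 661 and 645 CPM in AD heads at day 30, against 517, 533 and 503 CPM in WT heads. At day 20, *Xbp1* had 627, 541 and 599 CPM in AD heads, against 597, 423 and 426.5 CPM in WT heads. The groups were apart at day 30, and at day 20 only WT replicate 1 reached into the AD range. At day 10, *Xbp1* had 489.7, 483 and 466 CPM in AD heads, against 533, 428 and 363 CPM in WT heads. At day 3, *Xbp1* had 374, 429 and 402 CPM in AD heads, against 355, 419 and 384 CPM in WT heads. The genotypes overlapped on both of these days. The log2 fold change averaged over the days was 0.21 ± 0.07 (FDR 0.21).

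The remaining 4 genes gave no call between genotypes, either averaged over the days or on any day. *crc* (FBgn0000370, 2L:21310866-21319527) had between 818 and 1332 CPM in AD heads and between 799 and 1161 CPM in WT heads, a log2 fold change of 0.09 ± 0.06 averaged over the days (FDR 0.656). *PEK* (FBgn0037327, 3R:5458563-5464753), the eIF2alpha kinase, had 76.3, 78.6 and 72.65 CPM in AD heads at day 30, against 63.8, 55.7 and 67.3 CPM in WT heads. Although these groups were apart, the log2 fold change of *PEK* at day 30 was 0.29 ± 0.27 (FDR 0.95). *Ire1* (FBgn0261984, 3R:19853908-19861291), the nuclease that splices *Xbp1* mRNA, had 76.8, 85.0 and 70.9 CPM in AD heads at day 30, against 80.5, 70.0 and 70.1 CPM in WT heads, and the genotypes overlapped. *Atf6* (FBgn0033010, 2R:5144733-5154756) had every AD library below every WT library at day 30, as did 12.0% of all tested genes. At day 30 *Atf6* had 51.8, 50.1 and 61.8 CPM in AD heads, against 70.6, 65.3 and 66.9 CPM in WT heads, a log2 fold change of -0.31 ± 0.22 (FDR 0.841).

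Counts of several members share sequence with neighbours, and this limits how their values can be read. The annotated gene CG46314 shares 73.5% of the exonic bases of *crc* on the same strand, and no counts were listed under its identifier. *MICU3*, on the opposite strand, shares 12.3% of those of *Ire1*, and its CPM ran from 92.4 to 131 in AD heads and from 88.5 to 138 in WT heads. Of the annotated transposable element copies within *Atf6*, 4 share exonic bases with it, at 19.8%, 11.9%, 9.69% and 1.27% of those bases. RSEM divides reads that match more than 1 gene. The estimates of *Ire1* lay more than 0.005 counts from a whole number in 23 of the 24 libraries, those of *Pdi* in 5 and those of *crc* in 0. The number of isoforms added by the authors also differed between the runs for 4 members. *Ire1* had 7 in the first run and 0 in the second, *Gp93* had 1 and 0, *PEK* had 0 and 1, and *Atf6* had 0 and 3. The median gene length of *Atf6* was 3110 bases in the first run and 2401 bases in the second, while that of *Gp93* was 2842 and 2841 bases.

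Taken by single days, 0 of the 9 members were called at days 3, 10, 20 or 30. The backgrounds were low as well, since the share of all tested genes called was 0.0286% at day 3, then 0.21% at day 10, then 0.153% at day 20, and again 0.0286% on day 30. At an unadjusted p under 0.05 the members numbered 0, 3, 2 and 5 in order of the days, against 3.55%, 3.05%, 4.43% and 7.86% of all tested genes. DESeq2 called 0, 0, 1 and 1 of them, *Pdi* on both later days, against 0.0954%, 0.506%, 0.449% and 0.649% of all genes. The smallest p among the members belonged to *Gp93* at day 3 (log2 fold change 0.60 ± 0.37, FDR 1.0) and at day 10 (1.17 ± 0.38, FDR 0.664), and to *Pdi* at day 20 (0.45 ± 0.10, FDR 0.0952) and at day 30 (0.53 ± 0.10, FDR 0.0616). Every AD library lay above every WT library for 2 members at day 3 (*Hsc70-3* and *Gp93*), against 1.78% of all tested genes. The same held for 3 members at day 10 (*Hsc70-3*, *Gp93* and *Pdi*, background 3.63%), for 1 member at day 20 (*Pdi*, background 5.11%) and for 6 members at day 30 (*Hsc70-3*, *Gp93*, *Pdi*, *ERp60*, *Xbp1* and *PEK*, background 12.2%).

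**Figure D2:**
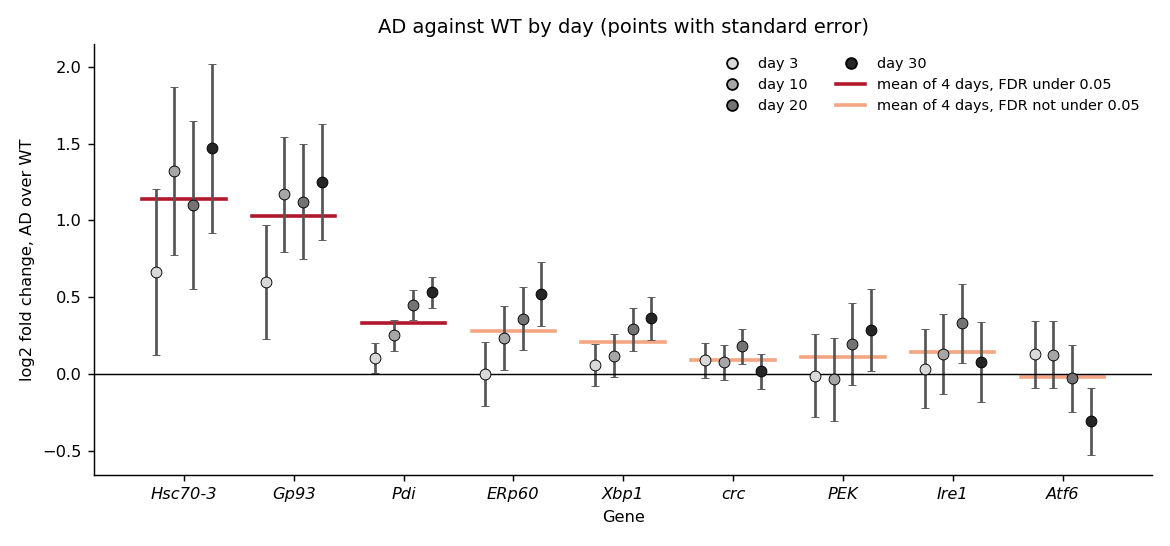
log2 fold change of AD over WT (vertical axis) for each gene at days 3, 10, 20 and 30 (light to dark points, bars are standard errors), with the mean of the 4 days as a horizontal line, dark red where its FDR was under 0.05 and pale otherwise. *Hsc70-3* and *Gp93* had the highest values with wide errors, and *Pdi* had smaller values with narrow errors, 0.11 at day 3 and 0.53 at day 30.

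The processing run moved with the levels of several members, and the comparison was therefore repeated within each run. At day 20 the first run gave 2.47 times the *Hsc70-3* level of the second run in AD heads and 5.97 times in WT heads, and for *Gp93* 1.68 times in AD heads and 3.48 times in WT heads. *Ire1* was 1.39 to 1.66 times higher in the first run on every day and in both genotypes, and *PEK* 1.21 to 2.03 times higher. Run was balanced over genotype at days 3, 10 and 20. Within the first run, with 1 library per group and no test, AD over WT was 1.27, 2.23 and 1.58 for *Hsc70-3* and 1.27, 1.93 and 1.56 for *Gp93* at days 3, 10 and 20. Within the second run it was 1.76, 2.75, 3.83 and 2.77 for *Hsc70-3* and 1.66, 2.51, 3.24 and 2.38 for *Gp93* at days 3, 10, 20 and 30. *Hsc70-3*, *Gp93* and *Pdi* were thus higher in AD heads in both runs on every day measured.

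The fit of the 18 libraries of the second run called 5 members for the mean of the 4 days, where 2.59% of the 10288 genes tested in it were called. They were *Hsc70-3* (1.42 ± 0.14, FDR 7.79e-05), *Gp93* (1.26 ± 0.10, FDR 3.7e-05), *Pdi* (0.38 ± 0.05, FDR 0.0013), *ERp60* (0.30 ± 0.05, FDR 0.00349) and *Xbp1* (0.28 ± 0.05, FDR 0.0132). In that fit *Gp93* was called at day 10 (background 0.0486%), and *Hsc70-3*, *Gp93*, *Pdi* and *ERp60* at day 20 (0.292%) and at day 30 (1.62%). Leaving out WT day 20 replicate 1 alone from the 24 libraries also gave 5 calls for the mean of the 4 days (background 1.74%), and it gave 3 calls at day 20 in place of 0 (background 0.313%). Without the library labelled AD day 30 replicate 3, 3 members were called for the mean of the 4 days (background 1.82%), and the log2 fold changes at day 30 were 1.79 for *Hsc70-3* and 1.49 for *Gp93*, against 1.47 and 1.25 with it. For the other members the day 30 values without it were 0.49 for *Pdi*, 0.55 for *ERp60*, 0.39 for *Xbp1*, 0.32 for *PEK*, 0.14 for *Ire1*, 0.09 for *crc* and -0.41 for *Atf6*, none of them called. What differed between the runs, and its part in these levels, was not tested.

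**Figure D3:**
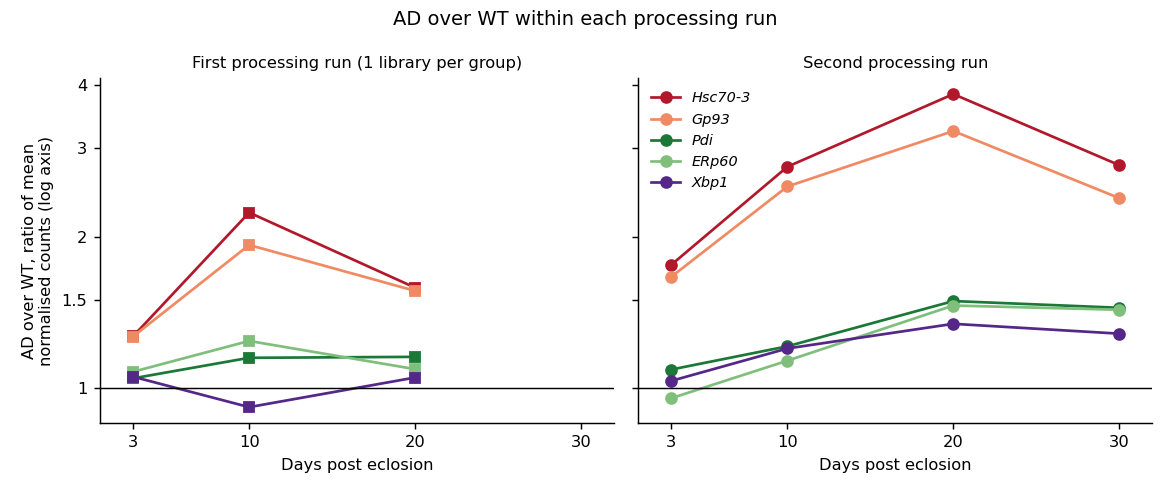
Ratio of AD over WT mean normalised counts (vertical log axis) against days post eclosion for *Hsc70-3*, *Gp93*, *Pdi*, *ERp60* and *Xbp1*, in the first processing run (left, 1 library per group, no day 30) and the second (right, 2 libraries per group and 3 at day 30). *Hsc70-3* reached 2.23 in the first run at day 10 and 3.83 in the second at day 20, and only *Xbp1* in the first run at day 10 (0.918) and *ERp60* in the second at day 3 (0.956) lay below 1.

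Change with age was compared next in each genotype. In AD heads *Pdi*, *Xbp1* and *ERp60* rose between day 3 and day 30, and these 3 of 9 members stand against 21.9% of all tested genes called in that comparison. *Pdi* averaged 714 ± 37.2 CPM at day 30 and 405 ± 16.3 CPM at day 3 (SD, n = 3 each), a 1.76-fold rise (log2 fold change 0.82 ± 0.10, FDR 1.8e-05). *Xbp1* averaged 665 ± 21.9 CPM at day 30 and 402 ± 27.2 CPM at day 3, a 1.65-fold rise (0.73 ± 0.14, FDR 0.00118). *ERp60* averaged 416 ± 15.6 CPM at day 30 and 246 ± 32.5 CPM at day 3, a 1.69-fold rise (0.75 ± 0.21, FDR 0.0141), which was not called without AD day 30 replicate 1 (FDR 0.0559) or AD day 3 replicate 2 (FDR 0.077). For each of these genes all day 30 libraries lay above all day 3 libraries of AD heads. How many of all tested genes were apart in this way was not counted, so the separation is not read as particular to these genes. *Hsc70-3*, at 869 ± 368.5 CPM on day 30 and 433 ± 65.5 CPM on day 3, was not called (1.0 ± 0.55, FDR 0.201), and neither was *Gp93* (0.94 ± 0.37, FDR 0.08).

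In WT heads *Pdi* and *crc* rose between day 3 and day 30, 2 of 9 members beside 11.2% of all tested genes. *Pdi* averaged 494 ± 7.85 CPM at day 30 and 377 ± 29.8 CPM at day 3, a 1.31-fold rise (0.39 ± 0.10, FDR 0.0156). *crc* had 1142, 1155 and 1086 CPM at day 30, against 826, 799 and 982 CPM at day 3 (0.38 ± 0.12, FDR 0.0414). The groups of *crc* and of *Pdi* were apart. The share of all tested genes apart in this way was not counted, so the separation is not read as particular to members. Neither gene was called without WT day 3 replicate 1 or without WT day 3 replicate 2, and *crc* was also lost without any of the WT day 30 replicates (FDR 0.0802 to 0.153 over these 5 fits). *Xbp1* had 517, 533 and 503 CPM at day 30, against 355, 419 and 384 CPM at day 3. Its groups were apart too, and its log2 fold change was the highest of the 9 members in WT heads, but it was not called (0.42 ± 0.14, FDR 0.0555). It passed in 6 of 12 alternatives and in 3 of 24 fits that left out 1 library. In AD heads *crc* had 1176, 1215 and 1034 CPM at day 30, against 929, 818 and 1025 CPM at day 3, and was not called (0.31 ± 0.12, FDR 0.0656). *Hsc70-3* averaged 313.5 ± 11.2 CPM in WT heads at day 30 and 273.5 ± 16.7 CPM at day 3, a log2 fold change of 0.20 ± 0.54 (FDR 0.865).

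A linear trend over all 4 days, given as log2 per 10 days, had a positive slope for 7 of the 9 members in each genotype, and the slope was called for 3 of them in AD heads and for 2 in WT heads. In AD heads the slopes were 0.29 ± 0.03 for *Pdi* (FDR 9.85e-06), 0.27 ± 0.05 for *Xbp1* (FDR 0.000555) and 0.28 ± 0.07 for *ERp60* (FDR 0.00864), with 22.5% of all tested genes called. *Hsc70-3* (0.38 ± 0.19, FDR 0.157) and *Gp93* (0.36 ± 0.13, FDR 0.0535) had slopes at least as high with wider errors and were not called, and *Gp93* was called without the library labelled AD day 30 replicate 3 (0.43, FDR 0.0362). In WT heads they were 0.13 ± 0.03 for *Pdi* (FDR 0.0183) and 0.15 ± 0.05 for *Xbp1* (FDR 0.0489), with 11.4% of all tested genes called. The AD slopes of *Pdi*, *Xbp1* and *ERp60* stayed past the threshold in all 24 fits without 1 library, whereas the WT slope of *Xbp1* did so in 3. Without the library labelled AD day 30 replicate 3 the WT slope of *Xbp1* was not called (FDR 0.0612). That library is no part of the WT slope, which was 0.152 without it and 0.151 with it. Only the spread shared by all groups and the set of tested genes changed. The difference between the slopes was tested directly and called 0 of the 9 members and 0.0% of all tested genes. At an unadjusted p under 0.05 in edgeR it gave 1 member, *Pdi*, whose slope was higher in AD heads by 0.16 ± 0.05 (FDR 1.0), against 3.59% of all genes. DESeq2 called 0 members and 0.191% of all genes. A steeper rise of these genes in AD heads was therefore not shown by the 24 libraries.

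**Figure D4:**
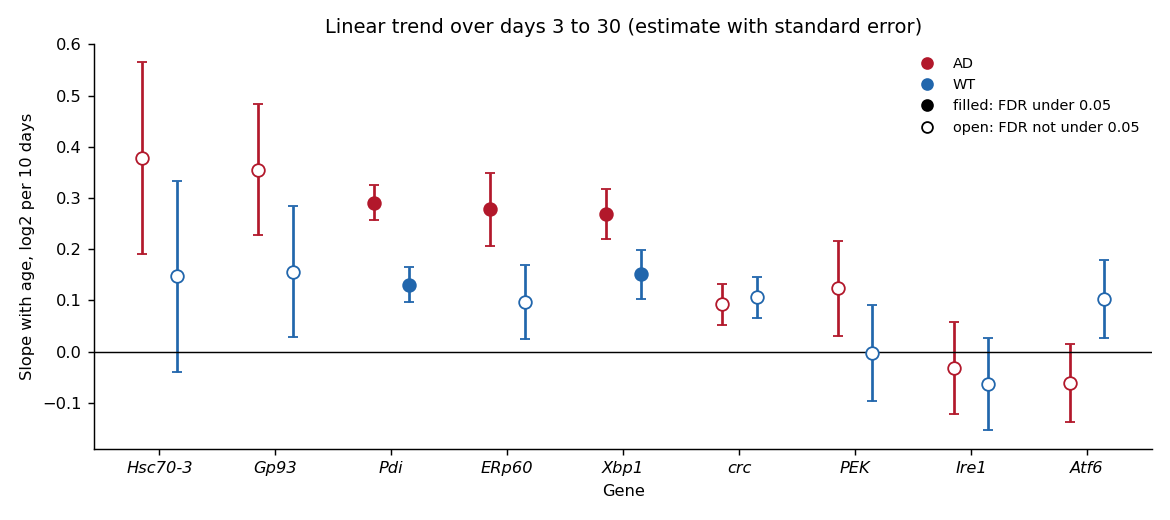
Slope of each gene with age in log2 per 10 days (vertical axis, bars are standard errors) in AD (red, left) and WT (blue, right) heads; filled points had an FDR under 0.05. *Pdi*, *ERp60* and *Xbp1* were filled in AD heads, *Pdi* and *Xbp1* in WT heads, and *Atf6* had slopes of -0.06 in AD heads and 0.10 in WT heads.

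Day 30 existed in the second run alone, so age and run were partly confounded, and the age comparisons were repeated within that run. There AD day 30 against day 3 called 7 members, of which 6 rose and *Atf6* fell (-0.41 ± 0.15, FDR 0.0489), beside 29.5% of all genes tested in that run. The 6 were *PEK* (0.43 ± 0.12, FDR 0.0166), *ERp60* (0.84 ± 0.09, FDR 2.88e-05), *Pdi* (0.78 ± 0.10, FDR 8.78e-05), *Xbp1* (0.65 ± 0.11, FDR 0.000435), *Gp93* (0.87 ± 0.20, FDR 0.00507) and *Hsc70-3* (0.88 ± 0.27, FDR 0.0243). WT day 30 against day 3 called 2 members there, *Pdi* (0.40 ± 0.10, FDR 0.0178) and *Xbp1* (0.36 ± 0.11, FDR 0.033), beside 13.7% of all genes. The difference of the slopes was called for 3 members when the library labelled AD day 30 replicate 3 was also left out, namely *Hsc70-3* (0.35 ± 0.06, FDR 0.0224), *ERp60* (0.23 ± 0.05, FDR 0.035) and *Gp93* (0.27 ± 0.05, FDR 0.0334), beside 1.04% of all genes. This setting was chosen after seeing the data. The library left out was the lowest of AD day 30 for each of these 3 genes, so leaving it out raises their AD slopes. The tissue markers moved with age too, in the fit of all 24 libraries. That fit called 21.9% of all tested genes between day 3 and day 30 in AD heads and 11.2% in WT heads. In AD heads *Act88F*, *Mhc*, *up* and *wupA*, all 4 muscle markers, and *Syt1* and *nSyb*, 2 of 5 neuronal markers, fell. In WT heads *Act88F*, *Mhc* and *up* as well as *Syt1* fell. Summed muscle markers at day 3 were uneven, at 5073, 3884 and 1565 CPM in AD heads and 4631, 4332 and 1807 CPM in WT heads. The glial markers *nrv2* and *Gs2*, 2 of 4, and the blood cell marker *Pxn*, 1 of 3, fell in both genotypes. The yolk protein gene *Yp3* rose in both genotypes, and *Yp1* was called as rising in AD heads only. In WT heads *Yp1* had 1.19, 38.3 and 1.67 CPM at day 3, against 12.6, 12.1 and 14.9 CPM at day 30. *Acp36DE* and *Acp53Ea* of the male reproductive tract were called as falling in WT heads. The markers of that tract summed to 246.5, 0.0 and 0.303 CPM in the WT day 3 replicates, and to at most 0.27 CPM at day 30. In WT heads their day 3 level thus came nearly all from replicate 1. In the AD day 3 replicates the same markers summed to 2.78, 54.4 and 0.157 CPM. Between genotypes the 5 neuronal markers had a median log2 fold change of -0.42 at day 30. Of these 5, 0 were called, and 2 had an unadjusted p under 0.05 in edgeR, beside 7.86% of all tested genes. In whole heads a change in the number of cells of a type and a change in RNA per cell cannot be told apart, and the part of these markers in the results was not tested.

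Genes of the surrounding pathways were counted from lists by role, which were chosen with earlier results of these data known. Of 17 tested genes of ER folding and quality control, 9 were higher in AD heads for the mean of the 4 days and 0 were lower, with a median log2 fold change of 0.32 against -0.01 over all tested genes, of which 1.1% were called as higher. *P58IPK*, an ER co-chaperone of the DnaJ type, had 119, 141 and 141 CPM in AD heads at day 20, against 75.5, 61.1 and 66.4 CPM in WT heads. Its log2 fold change averaged over the days was 0.72 ± 0.07 (FDR 1.23e-05). *Sil1*, a nucleotide exchange factor of BiP, had 39.5, 49.55 and 42.3 CPM in AD heads at day 20, against 22.7, 20.96 and 20.9 CPM in WT heads, and averaged 0.84 ± 0.09 (FDR 2.98e-05). For both genes every AD library was above every WT library at day 20, as for 5.11% of all tested genes. At days 10 and 20, when no member was called, 4 genes of this list were called as higher in AD heads on each day, beside 0.21% and 0.153% of all tested genes called in either direction, led by *Sil1* (1.02 ± 0.19, FDR 0.0234) and *CaBP1* (0.85 ± 0.16, FDR 0.0281), a disulfide isomerase, at day 10, and by *P58IPK* (0.98 ± 0.15, FDR 0.00658) and *CaBP1* (0.96 ± 0.16, FDR 0.0157) at day 20.

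The degradation, translation and translocation genes gave fewer calls between genotypes than the folding list. For the mean of the 4 days these counts stand beside 1.1% of all tested genes called as higher in AD heads. Of 14 tested genes of ER-associated degradation, 2 were higher in AD heads averaged over the days and 0 lower, *Herp* (0.39 ± 0.07, FDR 0.00247) and the derlin *Der-1* (0.27 ± 0.07, FDR 0.0431), with a list median of 0.14. Of 14 tested genes of the eIF2alpha-ATF4 arm and its target genes, a list that also holds *eIF2alpha* itself and the parallel kinase gene *Gcn2*, 2 were higher and 0 lower, with a list median of 0.12. They were *Ldh*, lactate dehydrogenase, at 8.44-fold (3.08 ± 0.32, FDR 1.23e-05), and the pseudokinase gene *trbl* (0.32 ± 0.08, FDR 0.0473). *Ldh* had 151, 284.5 and 295 CPM in AD heads at day 10, against 16.55, 14.4 and 17.98 CPM in WT heads, and at day 30 it had 265, 211 and 40.1 CPM in AD heads, against 31.65, 34.0 and 30.1 CPM in WT heads. The value of 40.1 CPM is again that of the library labelled AD day 30 replicate 3. Of 15 tested genes of translocation and N-glycosylation, 2 were higher and 0 lower, the oligosaccharyltransferase subunit gene *Ost48* (0.30 ± 0.06, FDR 0.00964) and the signal peptide peptidase gene *Spp* (0.25 ± 0.06, FDR 0.0473), with a list median of 0.18. For the mean of the 4 days the calls of *Der-1*, *trbl* and *Spp* lay near the threshold and were kept in 6, 5 and 6 of the 24 fits without 1 library, while those of *P58IPK*, *Sil1*, *Herp*, *Ldh* and *Ost48* were kept in all 24. The calls on single days were kept less widely, at day 10 in 18 fits for *Sil1* and 14 for *CaBP1*, and at day 20 in 21 for *P58IPK* and 20 for *CaBP1*. All of these fits repeated the filter on low counts, so their sets of tested genes differed too.

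**Figure D5:**
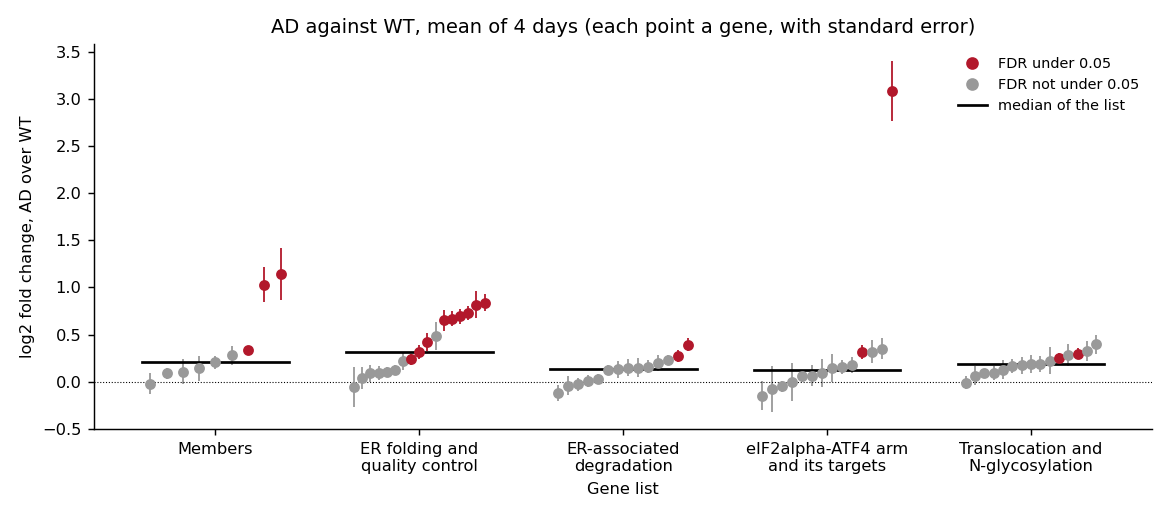
log2 fold change of AD over WT averaged over the 4 days (vertical axis, bars are standard errors) for each tested gene of the 9 members and of the lists of surrounding genes; red points had an FDR under 0.05 and black lines are medians. In the folding list 9 of 17 genes were red with a median of 0.32, and *Ldh* stood apart at 3.08 in the eIF2alpha-ATF4 list.

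With age, the folding list had 9 of 17 genes rising in AD heads by linear trend, where 22.5% of all tested genes were called, and 2 in WT heads, where 11.4% were. The WT counts of all 4 lists, from 0 to 2 genes, lay near or below that background. The folding list was led in both by *NUCB1*, a calcium-binding protein gene, at 0.29 ± 0.04 log2 per 10 days in AD heads (FDR 3.74e-05) and 0.16 ± 0.04 in WT heads (FDR 0.0087). The second WT call, *CaBP1*, was kept in 9 of the 24 fits without 1 library. In the translocation list 8 of 15 genes rose in AD heads, led by *Spp* (0.29 ± 0.04, FDR 9.78e-05), and 1 in WT heads, *TRAM* (0.22 ± 0.07, FDR 0.048), which was kept in 6 of the 24 fits. The count in AD heads was 3 without the library labelled AD day 30 replicate 3, and 3 to 9 over all fits without 1 library. Without that same library the AD counts were 11 for folding, 4 for the eIF2alpha-ATF4 list and 1 for degradation. In the eIF2alpha-ATF4 list 5 genes rose and 1, *chrb*, fell in AD heads, led by *trbl* (0.41 ± 0.05, FDR 2.39e-05) and the serine synthesis gene *CG11899* (0.42 ± 0.08, FDR 0.000533), and 0 were called in WT heads (2 at an unadjusted p under 0.05, 1 by DESeq2). In the degradation list edgeR called 0 in AD heads (3 at an unadjusted p under 0.05, 1 by DESeq2) and 1 rose in WT heads, *Npl4* (0.23 ± 0.06, FDR 0.0138). The difference between the AD and WT slopes called 0 genes in each of the 4 lists, and at an unadjusted p under 0.05 edgeR gave 4 genes for folding, 0 for degradation, 2 for the eIF2alpha-ATF4 arm and 2 for translocation.

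The genes whose pattern was most like that of *Hsc70-3* were ranked by Pearson's r of log2 CPM over the 18 libraries of the second run, as a description without a test, since these libraries share their normalisation and groups. *Gp93* was first among all tested genes (r = 0.99, and 0.982 over all 24 libraries). *scf* (0.977 and 0.972), *CG9175* (0.961 and 0.762), *P58IPK* (0.961 and 0.786) and *Orct2* (0.960 and 0.826) followed. The other members ranked lower, with r of 0.747 for *Pdi*, 0.724 for *ERp60*, 0.711 for *Xbp1*, 0.594 for *PEK*, 0.563 for *Ire1*, 0.535 for *crc* and -0.205 for *Atf6*.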

How the data were processed

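The authors filtered the reads with SOAPnuke, mapped them with HISAT 2.0.4 to the release 6 genome (dmel_r6.11) and estimated expression with RSEM; the labels also list Bowtie2. They deposited, per gene and library, expected counts, which are estimated and not normalized, and FPKM, which divides them by gene length and library size. Genes not listed for a library were taken as 0. After rounding, expected counts of all 24 libraries entered a single model of 8 groups without covariates, in edgeR 4.0.16 under R 4.3.3, with TMM factors, filterByExpr and the quasi-likelihood test (common biological coefficient of variation 0.314). A call needed an FDR under 0.05 over 10479 genes. The methods of the study name DESeq2 and an absolute log2 fold change over 1, tried as alternatives with DESeq2 1.42.0. Further alternatives were limma 3.58.1 on log2(FPKM + 1) and log2(FPKM + 0.1), other normalization and filters, processing run, replicate block, and each library left out. The fits were tested on simulated data. Positions follow the release 6 annotation BDGP6.54, counted from 1.

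The members and the lists were chosen with earlier results of these data known. All members were named, and at most 2 genes per list and comparison by smallest p among those called; *chrb*, named as the single gene that fell, was chosen after its values were seen. Counting error is small at the lowest member count of 630 in a library, and covers only part of the technical error, since the reads carry no molecular identifiers.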

Additional observations from a re-analysis of the deposited data

How the results depend on the processing

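The direction of the genotype difference of *Hsc70-3*, *Gp93* and *Pdi* and of the AD age trends of *Pdi*, *Xbp1* and *ERp60* was the same in every alternative run. Counts of members called differed between settings, and the share of all genes called differed with them, so each count is followed by that share in the same fit. For AD against WT the counts at day 10 were 1 in the second run only (0.0486%), 2 there without the library labelled AD day 30 replicate 3 (0.361%), and 1 with the run as covariate without it (0.599%), and at day 3 the second run without it gave 2 (0.0877%). At day 20 DESeq2 gave 1 (0.449%), the run as covariate 1 (0.305%), or 2 without that library (0.519%), and the second run 4 (0.292%), or 4 without it (0.838%). At day 30, where 0.0286% of all genes were called in the fit reported, DESeq2 gave 1 (0.649%), the run as covariate 3 (1.64%), or 4 without it (4.31%), the second run 4 (1.62%), or 5 without it (5.94%), and the day 30 groups alone 5 (4.45%). For the mean of 4 days the second run gave 5 (2.59%), also without the library (4.94%). There the fold limit of the study left 2 (0.315%), without *Pdi*, and without a filter on low counts 2 were called (0.759%), since the FDR of *Hsc70-3* was 0.0584, the single one of 11 alternatives in which it was not called. For WT day 30 against day 3 the counts were 1 without a filter (7.16%), 4 with the run as covariate (18.8%), also without the library (17.4%), 4 in the second run without it (15.2%), 0 from the WT groups alone (9.56%) and 0 with the fold limit (4.49%). For AD day 30 against day 3, with 21.9% of all genes called in the fit reported, the run as covariate gave 7 (35.9%), also without the library (29.3%), the second run 7 (29.5%), also without it (28.5%), and the fold limit 0 (7.68%). The WT trend gave 1 with RLE normalization (11.7%), without a filter (7.18%) and with a mean of at least 10 counts (11.4%), and 0 from the WT groups alone (8.98%) and with the fold limit (3.75%). The AD trend gave 5 with DESeq2 (26.8%), 6 with the run as covariate (36.0%), also without the library (30.3%), 7 in the second run (31.7%), also without it (30.3%), and 0 with the fold limit (7.22%). The trend difference gave 3 in the second run without the library (1.04%). Both alternatives without that library were chosen after seeing the data. The cause of these shifts was not tested.

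Leaving out 1 library gave 0 to 3 calls at day 20, 0 to 1 at day 30, 2 to 5 for the mean of 4 days, 0 to 3 for WT day 30 against day 3, 2 to 4 for AD day 30 against day 3, 0 to 2 for the WT trend, 3 to 5 for the AD trend, and 0 to 0 at day 3, at day 10 and for the trend difference. Over the same fits the number of all genes called was 1 to 35 at day 20, 0 to 31 at day 30, 89 (without AD day 30 replicate 1) to 203 (without AD day 30 replicate 3) for the mean, 559 to 1774 for WT and 1355 to 2381 for AD day 30 against day 3, 615 to 1549 for the WT trend and 1596 to 2453 for the AD trend. The highest counts of members at days 20 and 30, for the mean and for the AD trend came without WT day 20 replicate 1. The WT count of day 30 against day 3 was 0 without WT day 3 replicate 1 or 2, and the WT trend count was 0 without WT day 3 replicate 2 or WT day 30 replicate 1 or 2. The AD count of day 30 against day 3 was 2 without AD day 30 replicate 1 or AD day 3 replicate 2. Each of these fits repeated the filter on low counts, so the set of tested genes changed along with the libraries. It held 11186 genes without WT day 20 replicate 1, against 10479 in the fit of all 24 libraries.

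Small uncalled values changed sign. The WT trend of *PEK* (-0.00229) was 0.000683 without a filter, 0.0609 with the run as covariate (0.0623 without the library labelled AD day 30 replicate 3), 0.00758 in the second run (0.0077 without it), 0.0361 and 0.038 with limma on log2(FPKM + 1) and log2(FPKM + 0.1), and -0.0441 to 0.0292 with 1 library left out. The WT trend of *Ire1* (-0.06) was 0.0107 with the run as covariate (0.012 without that library). The AD trend of *Ire1* (-0.03) was 0.0525 with the run as covariate (0.0685 without it), 0.0547 in the second run (0.0778 without it), 0.0254 and 0.0273 with limma, and -0.0868 to 0.0486 with 1 library left out. The genotype mean of *Atf6* (-0.02) was 0.00393 in the second run and -0.106 to 0.0494 with 1 library left out, and its AD trend (-0.06) was 0.0689 and 0.0733 with limma and -0.153 to 0.0369 with 1 library left out.

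Deviations of same-numbered AD and WT libraries correlated on average at 0.404, 0.54, 0.555 and -0.0412 at days 3, 10, 20 and 30, against -0.205, -0.257, -0.249 and 0.0207 for other numbers. All 3 pairs were over 0.1 at days 10 and 20, but not at days 3 and 30. Over the 12 pairs the range was -0.113 to 0.805. Between replicates 2 and 3, pairs of other numbers also correlated, at 0.339 and 0.172 at day 10 and 0.405 and 0.459 at day 20. Pairs of replicate 1, which came from the first run, with other numbers lay between -0.319 and -0.647 on these days. Pairing by number and a shared run therefore cannot be told apart at days 10 and 20. The replicate block changed no member call at those days. With the replicate block the count of members called was 1 at day 30 (*Pdi*, FDR 0.027), and for the mean of 4 days it was 4 in place of 3 (*ERp60* added, FDR 0.0307), for AD day 30 against day 3 4 in place of 3, for the AD trend 4 in place of 3, and for WT day 30 against day 3 3 in place of 2. The share of all genes called was also higher with the block, at 0.258% in place of 0.0286% at day 30, 2.7% in place of 1.29% for the mean, 30.1% in place of 21.9% for AD day 30 against day 3, 31.4% in place of 22.5% for the AD trend and 17.7% in place of 11.2% for WT day 30 against day 3.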
